A study of Mus musculus with 2 samples.

Results

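Mitosis is driven by a set of genes that dividing cells transcribe together late in the cell cycle, and 43 of them were followed here in mouse myeloid-derived suppressor cells (MDSC) grown with Selinexor or with the vehicle DMSO. The members were chosen by symbol for their known roles in G2 and mitosis, not by a threshold on measured values, and all 43 were found among the 32285 genes of the deposited tables. They fall into 8 roles, which run in order through chromosome structure, cyclins, mitotic kinases, the anaphase-promoting complex, kinetochore and checkpoint, the chromosomal passenger complex, the spindle, and cytokinesis. All 43 had at least 50 UMIs (unique molecular identifiers, counted transcript molecules) over both libraries, the minimum at which a gene is called measured here, and the member with the fewest had 233.

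MDSC are immature myeloid cells, neutrophil-like or monocyte-like, that restrain T cells. Those studied here were differentiated in culture with IL-6 and GM-CSF at 40 ng/mL each, with 50 nM Selinexor in 1 culture and DMSO in the other, and were taken on day 4. Selinexor inhibits exportin 1 (Xpo1), which carries proteins with a nuclear export signal out of the nucleus. Viable CD11b-positive cells were sorted, the suspensions were pooled before droplet capture, and the cells were told apart by feature barcodes, per the labels' protocols. The labels give no strain, animal number or donor tissue, and call the cells MDSC without naming the lineages among them.

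In vertebrate cells, cyclin A and cyclin B bind the kinase CDK1 and start mitosis, after which Polo-like and Aurora kinases build the spindle and the kinetochores attach chromosomes to it. The anaphase-promoting complex (APC/C) then marks cyclin B and securin for destruction, and the central spindle directs the cleavage of the cell. In the neutrophil lineage, division belongs to the early stages that make the primary granules, continues into the myelocytes that make the secondary granules, and stops in the late, segmented cells.

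The bases before the transcription start of the members are shown first because genes of this kind carry recurrent letters there. Many promoters switched on late in the cell cycle hold the CCAAT box, the site of the factor NF-Y, and many hold a cell cycle gene homology region, whose usual form is TTTGAA. Below are the 150 bases before the RefSeq start (GRCm38.p6) of 5 members, each 5′ to 3′ on the strand of the gene, with every CCAAT or its complement ATTGG and every TTTGAA or its complement TTCAAA in capitals. Cenpf, Plk1 and Nusap1 are 3 of the 6 members that passed 1.5-fold lower with Selinexor, Ccnb2 is a cyclin and Top2a had the highest summed UMI count of all members.
Cenpf (chr1:189688087-189688236, minus strand): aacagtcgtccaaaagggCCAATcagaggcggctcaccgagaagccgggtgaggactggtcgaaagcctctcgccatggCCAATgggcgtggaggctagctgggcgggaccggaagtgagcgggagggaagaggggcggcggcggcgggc
Plk1 (chr7:122159285-122159434, plus strand): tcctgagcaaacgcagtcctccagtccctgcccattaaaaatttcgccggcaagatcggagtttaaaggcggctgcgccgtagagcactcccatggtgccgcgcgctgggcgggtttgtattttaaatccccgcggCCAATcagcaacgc
Nusap1 (chr2:119618148-119618297, plus strand): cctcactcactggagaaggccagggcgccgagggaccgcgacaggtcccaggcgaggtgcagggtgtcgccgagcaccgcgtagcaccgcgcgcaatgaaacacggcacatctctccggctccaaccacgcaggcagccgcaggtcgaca
Ccnb2 (chr9:70421555-70421704, minus strand): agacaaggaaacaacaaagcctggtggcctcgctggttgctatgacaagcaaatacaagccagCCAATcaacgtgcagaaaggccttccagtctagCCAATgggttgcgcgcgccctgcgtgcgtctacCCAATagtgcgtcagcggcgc
Top2a (chr11:99024190-99024339, minus strand): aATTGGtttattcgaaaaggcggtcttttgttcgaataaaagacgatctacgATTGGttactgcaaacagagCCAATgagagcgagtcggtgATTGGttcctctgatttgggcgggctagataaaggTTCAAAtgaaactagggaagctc

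Within these 150 bases, Top2a had 4 CCAAT and 1 TTTGAA, Ccnb2 had 3 CCAAT, Cenpf 2, Plk1 1 and Nusap1 neither motif. RefSeq entries were present for 37 members with 39 starts, and Aurkb, Ccna2, Cdc25c, Kif20a, Smc4 and Tpx2 were not matched. Over the 250 bases before the start, CCAAT on either strand occurred in 29 of the 39 member windows (74.4%) and in 33.8% of the 32851 windows of all genes. TTTGAA on either strand occurred in 13 of the 39 (33.3%) and in 16.0% of all windows, and both motifs together in 12 (30.8%) and in 5.55% of all windows. Each motif was counted on its own, and neighbouring matches may share a base. The counts describe the letters only, and none bears on which factor was bound in these cells.

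The 2 libraries differed in UMIs per cell and in the mix of cells, which sets how the counts can be read. The cells were pooled before capture, and each library is the set of barcodes of 1 tag. The leading tag was CMO306 in all 1989 Selinexor barcodes and CMO305 in all 1784 DMSO barcodes. The cause of the difference in UMIs per cell was not tested. Once barcodes with fewer than 200 genes or with 10% or more mitochondrial UMIs had been dropped, there were 1967 Selinexor cells with 12841480 UMIs and a median of 3984 per cell, and 1743 DMSO cells with 14222344 UMIs and a median of 7788. With 1 library per group there is no replicate check, no difference was tested, and all intervals are 95% intervals for counting error only. Summed counts cannot tell apart fewer cells of a type and less RNA per cell. Xpo1, the target of the drug, had 2568 UMIs in the Selinexor library and 944 in the DMSO library, a log2 ratio of 1.58. T cell markers had 17 UMIs in the Selinexor library and 16 in the DMSO library, NK cell markers 2 in Selinexor and 1 in DMSO, and B cell markers 62 in Selinexor and 99 in DMSO.

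The mitotic genes were lower as a group in the Selinexor library. Their 30213 UMIs made 2353 CPM (UMIs after each library's gene total is scaled to the same sum; interval 2326 to 2379) in the Selinexor library, against 42534 UMIs and 2991 CPM (2962 to 3019) in the DMSO library, a log2 ratio of -0.35. Of the 43 members, 41 had a log2 ratio below 0, with a median of -0.28, while the median over the 10393 genes measured was 0.13. At least 1.5 times lower were 6 members and at least 1.5 times higher were 0, against 3.88% of all measured genes lower and 9.83% higher. Log2 ratios are log2(CPM + 1) in Selinexor minus the same in DMSO, so a negative value means lower in Selinexor. Trimmed-mean (TMM) scaling moves every ratio down by 0.13, which puts the members past the limit at 11 and turns the split of all genes to 614 higher and 639 lower, against 1022 higher and 403 lower with plain CPM. The number of members past 1.5-fold lower was 18 with all cells weighted equally, beside 6.31% of all genes. It was 1 with a stricter cell filter (4.51% of all genes) and 1 without the low-UMI late neutrophil-like cluster 0 (4.76%). In both of these cases the members' share was below that of all genes. Under these and the other settings, 38 to 42 members lay below the all-gene median.

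**Figure D1:**
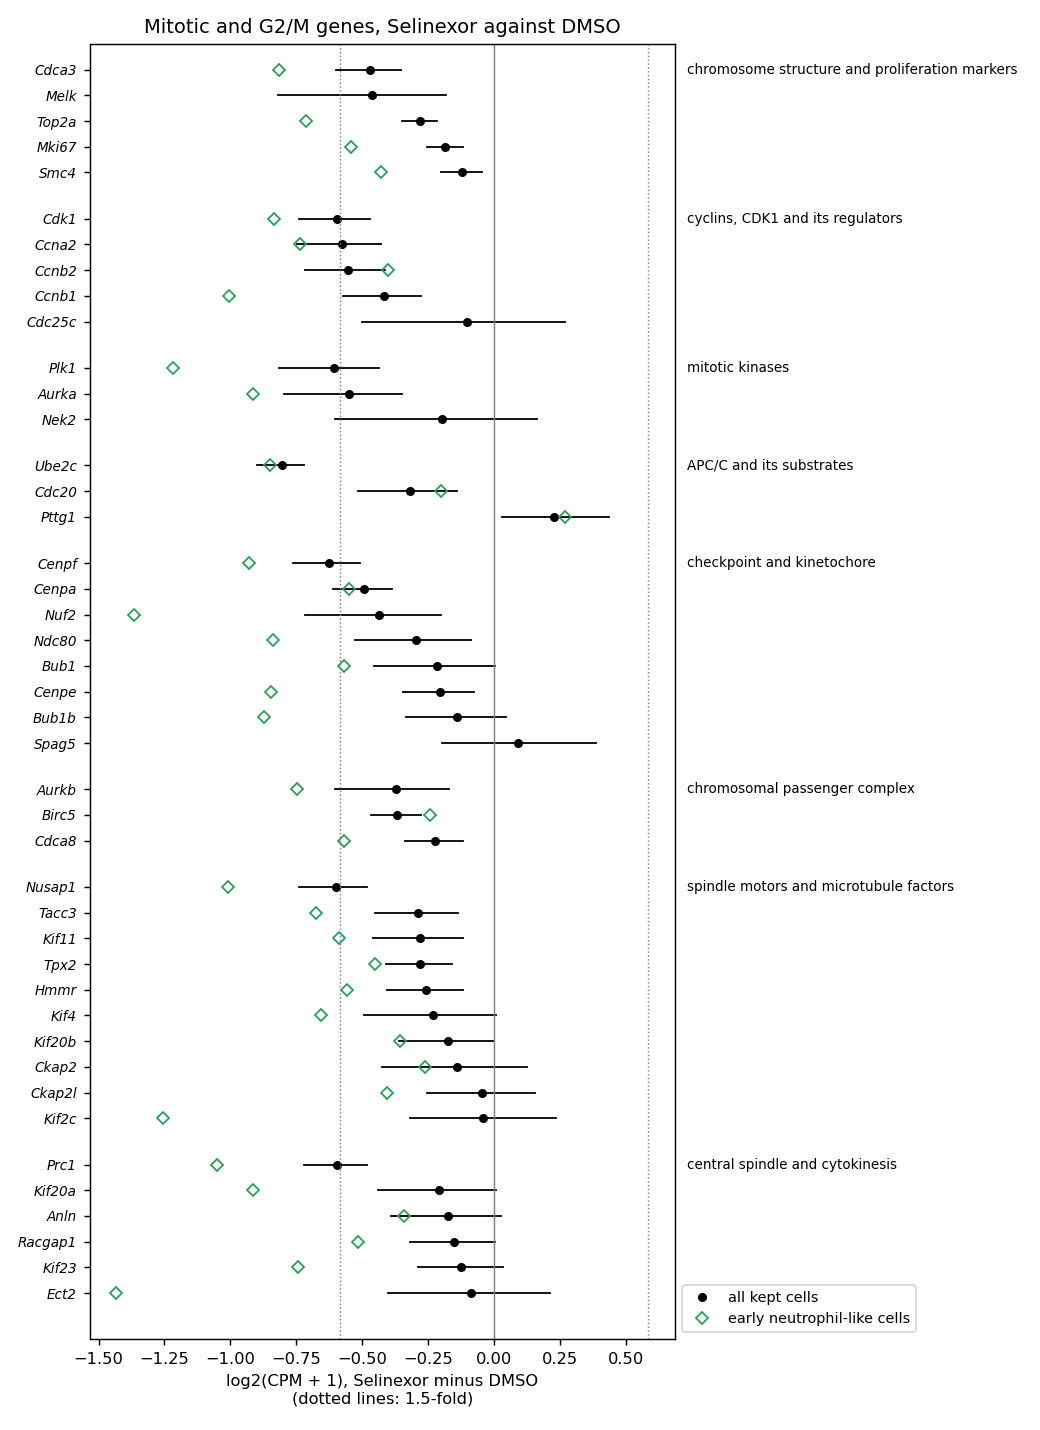
Log2 ratio (x axis, log2(CPM + 1), Selinexor minus DMSO) of each of the 43 genes (rows, grouped by role), for all kept cells with 95% counting intervals (black points and lines) and for early neutrophil-like cells without intervals (green diamonds, members with at least 50 UMIs in that class). Over all cells 41 points lie left of 0, from -0.80 for Ube2c to 0.23 for Pttg1, and 35 of the 39 diamonds lie lower than the black point of their gene. The median of all measured genes was 0.13 over all cells and -0.15 in early neutrophil-like cells.

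Among the chromosome and proliferation genes, all 5 members had ratios below 0 and none reached 1.5-fold. Mki67, the coat protein of mitotic chromosomes used as a proliferation marker, had 3103 UMIs and 242 CPM in the Selinexor library and 3912 UMIs and 275 CPM in the DMSO library (log2 -0.19, interval -0.26 to -0.12). Top2a, the topoisomerase that untangles replicated DNA, had 3223 UMIs and 251 CPM in Selinexor cells and 4340 UMIs and 305 CPM in DMSO cells (log2 -0.28, -0.35 to -0.22). These 2 genes carry the most UMIs of the list, and both lay closer to 0 than Cdk1, the 3 cyclins, Plk1 and Aurka. Cells with at least 2000 UMIs were thinned to 2000, so that both libraries were read at the same depth. The other 783 Selinexor and 314 DMSO cells are left out of all shares at this depth. Mki67 was detected in 25.8% of thinned Selinexor cells and 24.8% of thinned DMSO cells. Top2a was detected in 249 of 1184 thinned Selinexor cells and 313 of 1429 thinned DMSO cells (21.9%). Over all kept cells without thinning, Mki67 was detected in 30.5% of Selinexor cells and 36.1% of DMSO cells. Smc4, a condensin subunit that compacts chromosomes, had 188 CPM in Selinexor cells and 204 CPM in DMSO cells (log2 -0.12, -0.20 to -0.04), and was found in 22.3% of thinned Selinexor cells and 23.2% of thinned DMSO cells. Cdca3, which prompts the degradation of the CDK1 inhibitor Wee1, stood at -0.47 and the kinase Melk at -0.46.

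The 5 genes of the cyclin group stood lower as a sum (log2 -0.53) than the 5 chromosome genes (-0.24). Cdk1, the kinase that starts mitosis (chr10:69335146-69352938, minus strand, mm10), had 719 UMIs and 56.0 CPM in the Selinexor library and 1210 UMIs and 85.1 CPM in the DMSO library (log2 -0.59, -0.74 to -0.47), and was found in 7.35% of thinned Selinexor cells and 10.8% of thinned DMSO cells. Ccna2, the cyclin of S and G2 phase, had 519 UMIs in Selinexor cells and 864 in DMSO cells, or 40.4 CPM in Selinexor cells and 60.7 CPM in DMSO cells (log2 -0.58, -0.75 to -0.43). Ccnb2 had 44.6 CPM in Selinexor cells and 66.0 CPM in DMSO cells (log2 -0.55, -0.72 to -0.41), and its partner Ccnb1, the main mitotic cyclin, 49.2 CPM in Selinexor cells and 66.0 CPM in DMSO cells (log2 -0.42, -0.57 to -0.28). All 4 intervals lie below 0, and only Cdk1 passed 1.5-fold. Thinned cells held Ccna2 in 5.66% of Selinexor and 8.68% of DMSO cells, Ccnb1 in 4.98% of Selinexor and 7.35% of DMSO cells, and Ccnb2 in 8.61% of Selinexor and 9.31% of DMSO cells. Cdc25c, a phosphatase that activates CDK1, had 106 UMIs (8.25 CPM) in Selinexor cells and 127 (8.93 CPM) in DMSO cells, was found in 1.35% of thinned Selinexor and 1.47% of thinned DMSO cells, and its interval of -0.50 to 0.27 spans 0.

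Of the mitotic kinases, Plk1, needed for spindle assembly and mitotic entry (chr7:122159439-122169873, plus strand, mm10), was at least 1.5-fold lower. It had 367 UMIs and 28.6 CPM in the Selinexor library, against 627 UMIs and 44.1 CPM in the DMSO library (log2 -0.61, -0.82 to -0.44), and it was detected in 3.72% of thinned Selinexor cells and 5.81% of thinned DMSO cells. Aurka, the spindle pole kinase, had 20.5 CPM in Selinexor cells and 30.4 CPM in DMSO cells (log2 -0.55, -0.80 to -0.35), and was found in 2.36% of thinned Selinexor cells and 4.27% of thinned DMSO cells. The centrosomal kinase Nek2 had 104 UMIs in Selinexor cells and 134 in DMSO cells, with an interval of -0.60 to 0.16.

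The members around the APC/C held both ends of the list. Ube2c, the ubiquitin-conjugating enzyme of the APC/C (chr2:164769898-164778822, plus strand, mm10), had the lowest ratio of all 43 members. It had 1509 UMIs and 118 CPM in the Selinexor library, against 2930 UMIs and 206 CPM in the DMSO library (log2 -0.80, -0.90 to -0.72), and was found in 12.4% of thinned Selinexor cells and 15.8% of thinned DMSO cells. Cdc20, the activator of the APC/C, had 31.5 CPM in Selinexor cells and 39.4 CPM in DMSO cells (log2 -0.32, -0.51 to -0.14), and was found in 4.98% of thinned Selinexor cells and 5.32% of thinned DMSO cells. Pttg1, or securin, which holds back separase until the APC/C destroys it (chr11:43420250-43426251, minus strand, mm10), had 415 UMIs and 32.3 CPM in the Selinexor library and 391 UMIs and 27.5 CPM in the DMSO library (log2 0.23, 0.03 to 0.44). It was the only member whose interval lay above 0 with plain CPM scaling.

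Pttg1 had the smallest share of its UMIs in mitotic-positive cells of all members, in both libraries. Cells that were mitotic-positive, meaning that they held at least 3 member UMIs after thinning to 2000, carried 36.9% of its UMIs in the Selinexor library and 48.8% in the DMSO library. The base of these shares is all kept cells, and cells under 2000 UMIs, more numerous in the Selinexor library, could not be called positive. The next lowest share was 79.1% for Smc4 in the Selinexor library and 83.7% for Ccnb2 in the DMSO library, and the median member had 92.2% in the Selinexor library and 95.9% in the DMSO library. Late neutrophil-like cells, a cell class named from its markers that holds few other mitotic transcripts, had 77 Pttg1 UMIs (91.3 CPM) in the Selinexor library and 53 (39.0 CPM) in the DMSO library. Within mitotic-positive cells Pttg1 was level between the libraries, with a log2 ratio of 0.00. After thinning it was detected in 4.81% of Selinexor cells and 5.81% of DMSO cells, so the order of the shares is opposite to that of the CPM.

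At the kinetochore, Cenpf and Cenpa had the most UMIs over both libraries together. Cenpf, a large protein of the outer kinetochore (chr1:189640606-189688086, minus strand, mm10), had 794 UMIs and 61.8 CPM in the Selinexor library, against 1366 UMIs and 96.0 CPM in the DMSO library (log2 -0.63, -0.76 to -0.51), and was detected in 6.93% of thinned Selinexor cells and 10.5% of thinned DMSO cells. Cenpa, the histone variant that marks centromeres, had 83.0 CPM in Selinexor cells and 117 CPM in DMSO cells (log2 -0.49, -0.61 to -0.39), and was found in 12.2% of thinned Selinexor cells and 15.5% of thinned DMSO cells. Nuf2 stood at -0.44 and Ndc80 at -0.30, both parts of the complex that grips microtubules. The spindle checkpoint kinases Bub1 (-0.22) and Bub1b (-0.14) had intervals that reach 0, while the kinetochore motor Cenpe stood at -0.21 (-0.34 to -0.07). Spag5, which focuses spindle poles, was the other member above 0, with 193 UMIs in Selinexor cells and 200 in DMSO cells (log2 0.09, -0.20 to 0.39), found in 2.62% of thinned Selinexor and 2.59% of thinned DMSO cells.

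The 3 members of the chromosomal passenger complex, which corrects faulty attachments and later acts at the midzone, lay close together. Birc5, or survivin, had 1541 UMIs and 120.0 CPM in the Selinexor library and 2209 UMIs and 155 CPM in the DMSO library (log2 -0.37, -0.47 to -0.28). Cdca8, or borealin, had 93.4 CPM in Selinexor cells and 109 CPM in DMSO cells (log2 -0.22, -0.34 to -0.12), and the kinase Aurkb stood at -0.37. Birc5 was found in 14.3% of thinned Selinexor cells and 18.1% of thinned DMSO cells, and Cdca8 in 13.2% of Selinexor cells and 13.1% of DMSO cells.

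Among the 10 spindle motors and microtubule factors, Nusap1, which bundles spindle microtubules (chr2:119618298-119651244, plus strand, mm10), stood apart from the rest. It had 789 UMIs and 61.4 CPM in the Selinexor library, against 1333 UMIs and 93.7 CPM in the DMSO library (log2 -0.60, -0.74 to -0.48). Tpx2, which activates Aurora A on the spindle, had 68.8 CPM in Selinexor cells and 83.7 CPM in DMSO cells (log2 -0.28, -0.41 to -0.16). Nusap1 was found in 8.53% of thinned Selinexor cells and 10.7% of thinned DMSO cells, and Tpx2 in 11.3% of Selinexor cells and 11.9% of DMSO cells. The other 8, among them the bipolar spindle motor Kif11 (-0.28), lay between -0.29 for Tacc3 and -0.04 for Kif2c, a depolymerising motor with 206 UMIs in Selinexor cells and 235 in DMSO cells. Kif2c had 16.0 CPM in Selinexor cells and 16.5 CPM in DMSO cells (-0.32 to 0.23) and was found in 2.03% of thinned cells in both libraries. Ckap2l had 372 UMIs in Selinexor cells and 426 in DMSO cells (log2 -0.05, -0.25 to 0.16), and was found in 4.65% of thinned Selinexor cells and 3.01% of thinned DMSO cells.

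In the cytokinesis group, Prc1, which crosslinks the antiparallel microtubules of the central spindle (chr7:80294450-80316259, plus strand, mm10), had 906 UMIs and 70.6 CPM in the Selinexor library, against 1523 UMIs and 107 CPM in the DMSO library (log2 -0.60, -0.72 to -0.48). Its partners were closer to 0. Kif23, a motor of the centralspindlin complex, had 45.5 CPM in Selinexor cells and 49.6 CPM in DMSO cells (log2 -0.12, -0.29 to 0.03), Racgap1, its partner, stood at -0.15 and the exchange factor Ect2 at -0.09, on 165 UMIs (12.8 CPM) in Selinexor cells and 195 (13.7 CPM) in DMSO cells, with an interval of -0.40 to 0.21. Prc1 was found in 9.21% of thinned Selinexor cells and 12.3% of thinned DMSO cells, Kif23 in 77 of 1184 Selinexor cells and 7.07% of DMSO cells, and Ect2 in 1.52% of Selinexor cells and 1.47% of DMSO cells. Prc1 was the only member of the 6 past 1.5-fold.

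The share of cells with mitotic transcripts had overlapping intervals at 2000 UMIs, while the number of transcripts per positive cell was lower in the Selinexor library. Of the 1184 Selinexor cells deep enough to be thinned to 2000 UMIs, 418 were mitotic-positive (35.3%, interval 32.6 to 38.1), and of 1429 DMSO cells, 527 were (36.9%, 34.4 to 39.4). Thinning left out 783 Selinexor cells and 314 DMSO cells, and without thinning the shares were 38.6% of Selinexor cells and 46.9% of DMSO cells. Positive cells held a mean of 9.78 member UMIs in the Selinexor library and 11.7 in the DMSO library, with medians of 8 in Selinexor and 11 in DMSO. Cells with at least 10 member UMIs made up 15.6% of thinned Selinexor cells and 20.5% of thinned DMSO cells, and cells with at least 15 made up 7.01% of Selinexor cells and 11.6% of DMSO cells. At a depth of 1000 UMIs the positive shares were 18.7% of Selinexor cells and 26.2% of DMSO cells, and at 4000 UMIs 51.3% of Selinexor cells and 50.5% of DMSO cells, so the difference in share depends on the depth read and on which cells are left out.

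Read from unthinned UMIs, the balance among members within the positive cells was close in both libraries. These cells held 89.4% of all member UMIs in the Selinexor library and 94.0% in the DMSO library, at 5011 CPM in Selinexor cells and 5924 CPM in DMSO cells. As a share of the members' summed UMIs without thinning, no member differed by 1.5-fold between the libraries, while some members did after thinning, as given below. The largest unthinned differences were Ube2c, with 5.30% of member UMIs in Selinexor cells and 7.02% in DMSO cells, and Spag5, with 0.67% in Selinexor cells and 0.48% in DMSO cells. Top2a had the highest share and Mki67 the next in both libraries.

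Over all cells, genes of S phase, when DNA is copied, were not lower with the mitotic list. At 2000 UMIs, 47.0% of Selinexor cells and 42.5% of DMSO cells held at least 3 UMIs of 63 S phase genes. Cells positive for both lists made up 26.9% of Selinexor cells and 27.8% of DMSO cells, cells positive for mitotic genes alone 8.36% of Selinexor cells and 9.10% of DMSO cells, and cells positive for S phase genes alone 20.1% of Selinexor cells and 14.7% of DMSO cells. Of these 3 categories, S phase genes with fewer than 3 mitotic UMIs differed most in share.

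Cells were grouped by expression with 316 cell cycle and histone genes left out, which gave 14 clusters. Genes linked to the cycle but not on these lists stayed in. A cluster was named only where its markers carried the name. The 6 classes with at least 20 cells of 2000 UMIs or more in each library were compared. Early neutrophil-like cells (Mpo, Elane, Prtn3, Ctsg) numbered 74 in the Selinexor library and 126 in the DMSO library, and intermediate ones (Ltf, Camp, Ngp) 149 in Selinexor and 206 in DMSO. Macrophage-like cells numbered 51 in Selinexor and 222 in DMSO. They were led by Ccl17, H2-Ab1, Plet1 and C1qb, and their 10 leading genes held 3 macrophage markers and 3 dendritic cell markers beside other MHC class II genes, so the name rests on the mean of the markers. Late neutrophil-like cells numbered 703 in Selinexor, of which 667 lay in cluster 0, and 479 in DMSO, of which 369 lay in cluster 1. Cluster 4, unnamed and led by Tcaf1, Ccnb1ip1, Ear2 and F13a1, held 274 Selinexor and 30 DMSO cells, and cluster 3, unnamed and led by Ear6, Olfm4, Retnlg and Ltf, 243 Selinexor and 83 DMSO cells. Cluster 3 had 9 intermediate neutrophil markers at least 2 times higher than other cells, but more late than intermediate markers among its leading genes. In the Selinexor library 40.7% of member UMIs came from cluster 4 and 22.7% from monocyte-like cells, while in the DMSO library early neutrophil-like cells held 8931 of 42534, and the unnamed clusters 7 (18.6%) and 8 (18.2%), macrophage-like cells (18.2%) and intermediate neutrophil-like cells (17.3%) somewhat less each.

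Late neutrophil-like cells had the lowest mitotic level of the classes compared, and segmented neutrophils are known not to divide. They had 404 CPM of member UMIs in the Selinexor library, with a median of 1058 UMIs per cell, and 205 CPM in the DMSO library, with a median of 1880, and lay mostly in different clusters in the 2 libraries. Within cluster 0 the level was 424 CPM in Selinexor cells and 316 CPM in DMSO cells. Within cluster 1 it was 251 CPM in Selinexor cells and 192 CPM in DMSO cells. After thinning, 1 of 43 Selinexor cells (2.33%) and 1 of 228 DMSO cells (0.439%) of the class were mitotic-positive. The 2 members measured in this class, Smc4 (1.03) and Pttg1 (1.21), were both at least 1.5-fold higher with Selinexor and 0 were lower, where 29.3% of all measured genes were higher and 6.91% lower. The share of positive cells was higher in the other 5 classes compared here, in both libraries.

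**Figure D2:**
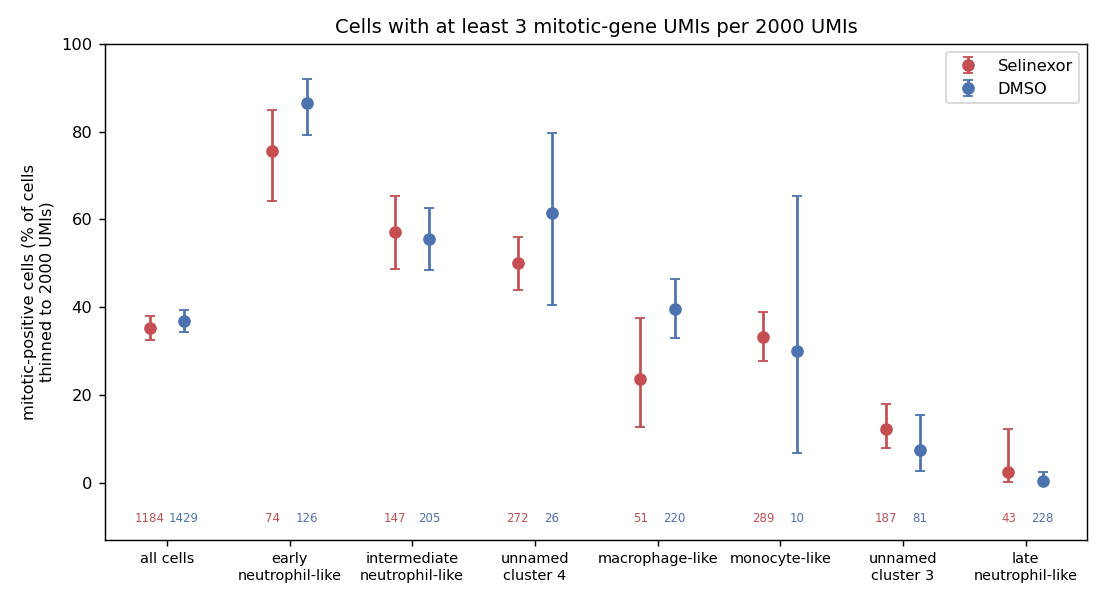
Share of mitotic-positive cells (y axis, percent of cells thinned to 2000 UMIs) in all cells and in 7 cell classes, Selinexor in red and DMSO in blue, with 95% Clopper-Pearson intervals for counting error and the number of thinned cells under each point. Shares run from 75.7% of Selinexor and 86.5% of DMSO early neutrophil-like cells to 2.33% of Selinexor and 0.439% of DMSO late neutrophil-like cells.

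Early neutrophil-like cells, the class with the highest share of mitotic-positive cells, had 38 of 39 measured members below 0. Of all genes measured in this class, 3166 of 4730 were also below 0, with a median of -0.15. Their summed level was 3323 CPM (3334 UMIs) in Selinexor cells and 5263 CPM (8931 UMIs) in DMSO cells, a log2 ratio of -0.66 (-0.72 to -0.61). Of the 39 members measured in this class, 23 were at least 1.5-fold lower and 0 higher, against 11.9% of the class's 4730 measured genes lower and 4.29% higher. Positive cells were 75.7% (64.3 to 84.9) of Selinexor cells and 86.5% (79.3 to 91.9) of DMSO cells, and the mean over all cells of the class was 5.85 member UMIs in Selinexor and 9.83 in DMSO. Cells with at least 10 member UMIs were 18.9% of Selinexor cells and 48.4% of DMSO cells, and those with at least 15 were 4.05% of Selinexor cells and 22.2% of DMSO cells. The ratio was -0.60 with clustering in double precision, with 20 of 40 measured members at least 1.5-fold lower, where the share of all genes lower was below the 11.9% of the clustering used here.

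The members lowest in early neutrophil-like cells act from mitotic entry to cytokinesis. Plk1 had 47 UMIs in Selinexor cells and 187 in DMSO cells (46.8 CPM in Selinexor and 110.2 CPM in DMSO, log2 -1.22, -1.73 to -0.77). Prc1 had 92 UMIs in Selinexor cells and 324 in DMSO cells (log2 -1.05), Nusap1 83 in Selinexor cells and 284 in DMSO cells (-1.01), and Ccnb1 62 in Selinexor cells and 212 in DMSO cells (interval -1.45 to -0.60). Ect2 (-1.43), Nuf2 (-1.36) and Kif2c (-1.26) were lower still but rest on 9 to 15 UMIs in Selinexor cells and 44 to 68 in DMSO cells. The abundant genes were lower as well, with Ube2c at 228 UMIs in Selinexor cells and 696 in DMSO cells (-0.85) and Top2a at 348 in Selinexor cells and 965 in DMSO cells (-0.71). Ube2c was detected in 23.0% of thinned Selinexor cells and 42.1% of thinned DMSO cells, whereas Mki67, at a log2 ratio of -0.54, was detected in 47.3% of Selinexor cells and 46.8% of DMSO cells. Pttg1 was above 0 here too, at 0.27 on 28 UMIs in Selinexor cells and 39 in DMSO cells. Within this class the markers of early neutrophils summed to 5733 CPM in Selinexor cells and 9918 CPM in DMSO cells, those of intermediate neutrophils to 23897 CPM in Selinexor cells and 17602 CPM in DMSO cells, and those of monocytes to 3382 CPM in Selinexor cells and 1591 CPM in DMSO cells, and the part of these differences in the mitotic values was not tested.

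Intermediate neutrophil-like cells had the mitotic genes lower by a smaller ratio, and fewer member UMIs in each positive cell. Positive cells were 57.1% (48.7 to 65.3) of Selinexor cells and 55.6% (48.5 to 62.5) of DMSO cells, with a mean of 10.9 member UMIs per positive cell in Selinexor and 13.4 in DMSO. The summed level was 3881 CPM in Selinexor cells and 4617 CPM in DMSO cells, a log2 ratio of -0.25 (-0.30 to -0.20). Of 39 measured members, 2 were at least 1.5-fold lower, Nuf2 (-0.67) and Ccna2 (-0.63), and 0 higher, where 9.59% of all measured genes were lower and 3.8% higher. Ckap2l was the highest member, at 0.49 on 55 UMIs in Selinexor cells and 54 in DMSO cells. The S phase list stood at 2405 CPM in Selinexor cells and 1709 CPM in DMSO cells (log2 0.49, 0.42 to 0.57), opposite in sign to the mitotic list. Early neutrophil markers summed to 665 CPM in Selinexor cells and 1029 CPM in DMSO cells of this class, and late neutrophil markers to 3016 CPM in Selinexor cells and 2186 CPM in DMSO cells, and their part in the mitotic values was not tested. These values depend on where the class ends. With the same clustering in double precision, an alternative chosen after seeing the clusters, the class held 246 Selinexor and 220 DMSO cells, the ratio was -0.42, 10 of 39 members were at least 1.5-fold lower beside 10.2% of all genes measured there, and positive cells were 38.7% of Selinexor cells and 47.5% of DMSO cells.

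Macrophage-like cells had the lowest ratio of the 6 classes compared. The summed level was 1539 CPM (985 UMIs from 51 cells) in Selinexor and 2805 CPM (7722 UMIs from 222 cells) in DMSO, a log2 ratio of -0.87 (-0.96 to -0.77), and positive cells were 23.5% (12.8 to 37.5) of Selinexor cells and 39.5% (33.0 to 46.3) of DMSO cells. Of 39 measured members, 29 were at least 1.5-fold lower and 0 higher, against 15.4% of all measured genes lower and 7.87% higher. Mki67 had 74 UMIs in Selinexor cells and 786 in DMSO cells (log2 -1.30), Ube2c 28 in Selinexor cells and 431 in DMSO cells (-1.82), and Cenpf 21 in Selinexor cells and 324 in DMSO cells (-1.81). Plk1 was lowest at -2.22, with 4 UMIs in Selinexor cells. Top2a stood apart at -0.22, with an interval of -0.51 to 0.06 and 194 CPM in Selinexor cells and 226 CPM in DMSO cells. Macrophage markers summed to 564 CPM in Selinexor cells and 1689 CPM in DMSO cells of this class, and their part in the mitotic values was not tested. Over all cells these markers summed to 477 CPM in Selinexor and 575 CPM in DMSO. In monocyte-like Selinexor cells they summed to 955 CPM, above the macrophage-like cells of that library, so the name fits the DMSO cells better than the Selinexor cells. With all variable genes used in the clustering, cell cycle genes included, the ratio was -0.33. Neither double precision nor a resolution of 2.0 left a class of this name with at least 20 cells in each library, and at resolution 0.5 the class of this name held 357 Selinexor and 179 DMSO cells, at a ratio of -0.71.

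**Figure D3:**
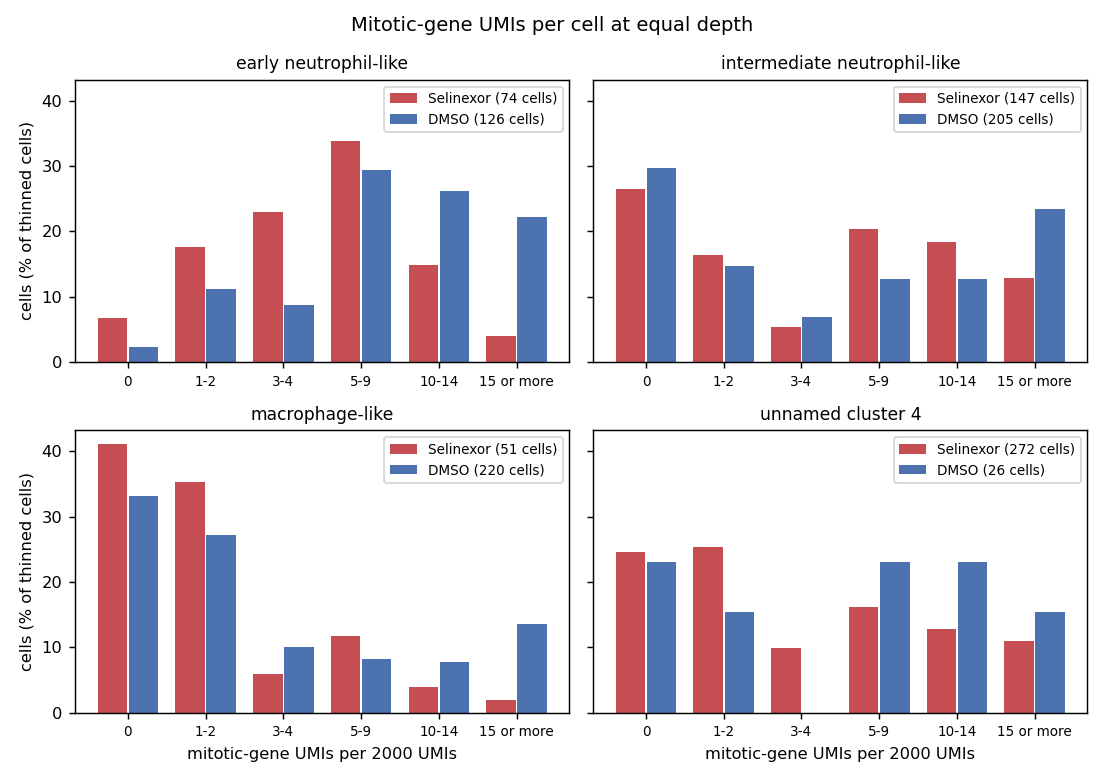
Mitotic-gene UMIs per cell after thinning to 2000 UMIs (x axis, bins) against the percent of thinned cells in each class and library (y axis), Selinexor in red and DMSO in blue. In early neutrophil-like cells 4.05% of Selinexor cells and 22.2% of DMSO cells had 15 or more, and in macrophage-like cells 1.96% of Selinexor cells and 13.6% of DMSO cells.

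The unnamed clusters pointed in different directions. In cluster 4 the members summed to 3246 CPM in Selinexor cells and 4555 CPM in DMSO cells (log2 -0.49, -0.57 to -0.41), and positive cells were 50.0% (43.9 to 56.1) of 272 Selinexor cells and 61.5% of 26 DMSO cells (40.6 to 79.8). Of 42 measured members 15 were at least 1.5-fold lower and 0 higher, against 11.8% of all measured genes lower and 14% higher, with Mki67 at -0.92, while Ube2c stood at 0.20 on 639 UMIs in Selinexor cells and 45 in DMSO cells. Monocyte markers in cluster 4 summed to 3187 CPM in Selinexor cells and 1878 CPM in DMSO cells, macrophage markers to 314 CPM in Selinexor cells and 591 CPM in DMSO cells, and early neutrophil markers to 186 CPM in Selinexor cells and 276 CPM in DMSO cells, and their part was not tested. In cluster 3, where few cells were positive, the members summed to 1497 CPM in Selinexor cells and 890 CPM in DMSO cells (log2 0.75, 0.58 to 0.92), and positive cells were 12.3% (7.96 to 17.9) of Selinexor cells and 7.41% (2.77 to 15.4) of DMSO cells. Only 5 members were measured in cluster 3, and 3 of them were at least 1.5-fold higher, Smc4 (0.85), Top2a (1.05) and Cenpf (1.10), against 13.8% of all measured genes higher and 7.26% lower. Cenpf there rests on 54 UMIs in Selinexor cells and 11 in DMSO cells. Monocyte-like cells had 290 cells in Selinexor and 10 in DMSO, too few for a comparison, with 1926 CPM in Selinexor and 1848 CPM in DMSO.

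Over the 5 classes other than late neutrophil-like cells, 4 members were below 0 in all 5, Ccnb2, Nek2, Nuf2 and Kif23. They had fewer than 50 UMIs in some of the classes. None of these 4 was measured in cluster 3, where the 5 measured members all lay above 0. Another 27 were below 0 in 4 classes and 12 in 3. This tally takes in members under 50 UMIs, and it was not made for all genes. Of all measured genes, 3166 of 4730 were below 0 in early neutrophil-like cells, 2727 of 4473 in intermediate ones and 3583 of 6571 in macrophage-like cells. In cluster 4 it was 3550 of 6824, and in cluster 3 it was 1281 of 3126. In early neutrophil-like and in macrophage-like cells, 38 of 39 measured members were below 0, the exceptions being Pttg1 in the first and Melk, at 0.04 on 11 UMIs in Selinexor cells and 46 in DMSO cells, in macrophage-like cells.

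Other genes of the cell cycle were read from 4 further lists. Of 73 other G2 and M phase genes, 5 were at least 1.5-fold lower and 0 higher over all cells, with a median of -0.18. Of all measured genes, 3.88% were lower and 9.83% higher. The lowest were the chromatin protein Hmgb3 (-0.92, 261 UMIs in Selinexor and 559 in DMSO), the CDK phosphatase Cdkn3 (-0.90), the mitotic kinase Pbk (-0.77) and the importin Kpna2 (-0.77), and the highest were Psrc1 (0.49), the transcription factor Mybl2 (0.36), the condensin subunit Ncaph2 (0.28) and Rangap1 (0.27). In early neutrophil-like cells 26 of 60 measured genes of this list were at least 1.5-fold lower and 0 higher, beside 11.9% of all genes lower. In intermediate cells 1 of 57 was lower (9.59% of all genes), in macrophage-like cells 15 of 51 (15.4%) and in cluster 4 24 of 65 (11.8%). Cluster 4 also had 2 of them higher, beside 14% of all genes. In cluster 3, 2 of 12 were higher and 1 lower, near the 13.8% of all genes higher and 7.26% lower there.

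Of the 63 S phase genes, 3 were at least 1.5-fold higher and 0 lower over all cells, beside 9.83% of all genes higher and 3.88% lower. The median of the list was 0.18, close to the all-gene median. Among those higher were the uracil glycosylase Ung (0.76, 128 UMIs in Selinexor and 78 in DMSO) and the origin licensing factor Cdc6 (0.66), followed by the helicase subunit Mcm2 (0.46). The lowest were the nucleotide enzymes Dut (-0.54) and Rrm2 (-0.50), then Tipin (-0.33) and Rfc2 (-0.29). The summed level of the list was 2424 CPM in Selinexor cells and 2288 CPM in DMSO cells (log2 0.08), and it turned to -0.050 with TMM scaling. In early neutrophil-like cells the S phase list was also below 0 (log2 -0.25), with 10 of 52 measured genes at least 1.5-fold lower and 0 higher, beside 11.9% of all genes lower. In cluster 4 it was below 0 as well (-0.38), with 17 of 59 lower and 3 higher, beside 11.8% of all genes lower and 14% higher. In intermediate cells 8 of 35 were higher and 0 lower, beside 3.8% of all genes higher, and in macrophage-like cells 15 of 48 were higher and 2 lower, beside 7.87% higher and 15.4% lower.

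**Figure D4:**
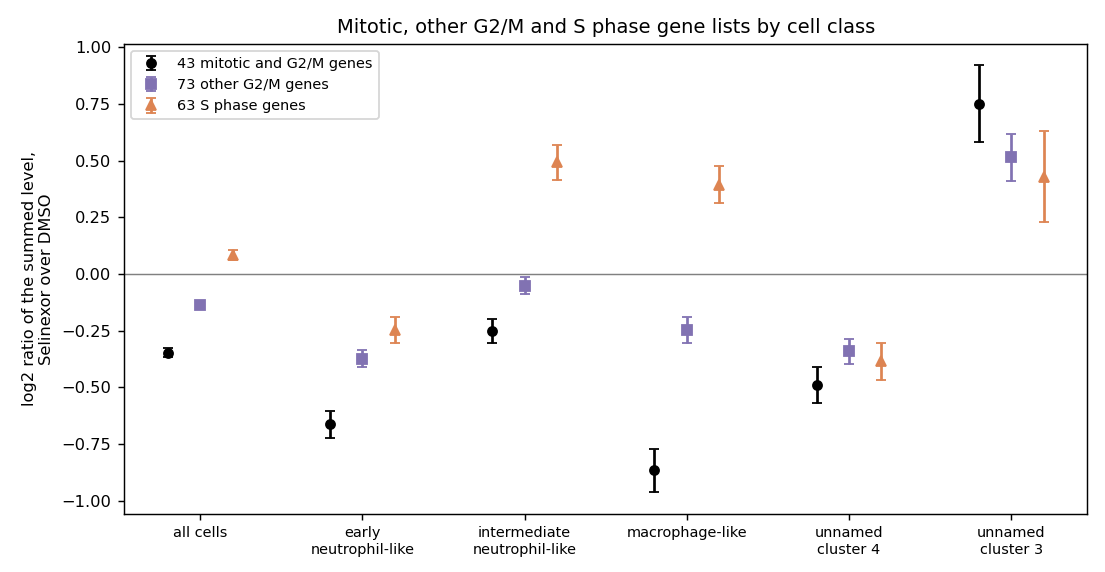
Log2 ratio of the summed level, Selinexor over DMSO (y axis), of the 43 mitotic and G2/M genes (black circles), the 73 other G2/M genes (purple squares) and the 63 S phase genes (orange triangles) in all cells and 5 cell classes, with 95% counting intervals. The mitotic list is lower than the S phase list in every class shown but cluster 3, with -0.25 against 0.49 in intermediate neutrophil-like cells and -0.87 against 0.39 in macrophage-like cells. In cluster 4 the intervals of these lists overlap (-0.57 to -0.41 and -0.47 to -0.30). Late neutrophil-like cells, not shown, had the mitotic list higher, at 0.98 against 0.50.

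A further list held 24 genes linked to slowing or halting the cycle, not all of which, Lin54 and Lin37 among them, act only as brakes. Of these, 20 were measured, 2 were at least 1.5-fold higher and 1 lower. That share is near the 9.83% of all genes higher and 3.88% lower. The antiproliferative gene Btg1 had 12493 UMIs and 973 CPM in the Selinexor library and 6561 UMIs and 461 CPM in the DMSO library (log2 1.07), and the quiescence-linked cyclin Ccng2 stood at 0.77, followed by Ccng1 (0.48) and Lin54 (0.40). The CDK4 and CDK6 inhibitor Cdkn2d was lower, at -0.75 (661 UMIs in Selinexor and 1239 in DMSO), followed by Cdkn2c (-0.38), Lin37 (-0.11) and Gadd45a (-0.05). Of 11 genes that drive G1, 10 were measured, 2 were at least 1.5-fold higher and 0 lower, beside the same 9.83% and 3.88% of all genes. The D-type cyclin Ccnd2 had 147 CPM in Selinexor cells and 83.9 CPM in DMSO cells (log2 0.80), and Cdk6, its kinase, 112 CPM in Selinexor cells and 64.8 CPM in DMSO cells (0.78), while Ccnd3 (-0.31) and Cdk4 (-0.27) lay below 0. Myc stood at 0.36, E2f3 at 0.31, Ccnd1 at 0.18 and E2f2 at 0.15.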

How the data were processed

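Single-cell RNA was counted in 2 mouse MDSC cultures, 1 per treatment. The deposited tables hold whole-number UMI counts for each gene in each cell, which the authors produced using Cell Ranger 6.1.2 and build mm10, per the submitters' processing notes. Neither the annotation release nor the rule for calling cells is given in the sources used here. Each group is 1 library, so no test was run.

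From these counts, barcodes with fewer than 200 genes or 10% or more mitochondrial UMIs were dropped, and the 12 multiplexing tags were left out of gene totals. No doublets were removed, and an alternative leaves out the deepest cells of each library. No barcode occurred in both libraries. UMIs were summed per library or class and scaled to CPM with a pseudocount of 1. Depth was equalised by drawing 2000 UMIs without replacement from each cell that had at least 2000. Cells were clustered with scanpy 1.11.5 and leidenalg 0.10.2 (2000 variable genes, 30 components, 15 neighbours, resolution 1.0, single precision) with 316 cell cycle and histone genes left out. Alternatives covered scaling, cell filters, pseudocount, thinning depth, the positive-cell limit and the clustering. Cluster names came from the best-scoring marker list, needed at least 3 markers 2 times higher than in the other cells, and were not given where markers of a different type outnumbered its own among the 10 leading genes. Classes were compared where each library had at least 20 cells of 2000 UMIs or more. Poisson, conditional binomial and Clopper-Pearson intervals are exact at 95%. The scripts were tested on simulated data. Coordinates are from GENCODE M21 and promoter sequences from RefSeq (GRCm38.p6).

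Full values are given for the 8 lowest and 8 highest members and the 2 most counted of each role, and from each other list for the 4 lowest and 4 highest genes with at least 100 UMIs, except 1 that is not reported here. The members and all lists were chosen with earlier results of these data known.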

Additional observations from a re-analysis of the deposited data

Results flagged for a closer look

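The summed level of the 43 mitotic genes lay on opposite sides of 0 in different cell classes. The log2 ratio, Selinexor minus DMSO, was -0.66 in early neutrophil-like cells, -0.25 in intermediate neutrophil-like cells, -0.87 in macrophage-like cells and -0.49 in the unnamed cluster 4. It was 0.75 in the unnamed cluster 3 and 0.98 in late neutrophil-like cells. The differences between classes were not tested. In late neutrophil-like cells only 2 members were measured, Smc4 and Pttg1, at 1.03 and 1.21, and the Selinexor and DMSO cells of that class lay mostly in different clusters.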

How the results depend on the processing

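The summed level of the mitotic genes stayed below 0 under every alternative run. It was -0.48 with TMM scaling, -0.49 with median-of-ratios scaling, -0.54 with cells weighted equally, -0.27 after thinning to 2000 UMIs, -0.28 with the stricter filter (1000 genes or more, mitochondrial UMIs under 5%), -0.44 without cells over the 98th percentile of UMIs, -0.40 with the same mix of clusters and -0.29 without cluster 0, an alternative chosen after seeing its low UMIs. The median was -0.52 with cells weighted equally. Members at least 1.5-fold lower numbered 11 with TMM, 12 with median-of-ratios, 18 with equal weights (1 higher), 1 with the stricter cell filter, 1 without cluster 0 and 2 with a pseudocount of 5, with 1 higher after thinning. Lower among all measured genes were 6.15% with TMM, 6.38% with median-of-ratios, 6.31% with equal weights, 4.51% with the stricter filter and 4.76% without cluster 0. Higher among them were 13.1% with equal weights and 15.4% after thinning. Past the smaller fold limit tried there were 16 lower and past 2-fold 0. All measured genes were not counted at these limits or with that pseudocount, so these member counts have no background beside them.

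The other G2 and M list was -0.27 with TMM, -0.28 with median-of-ratios, -0.026 thinned, -0.10 with the stricter filter, -0.17 without the deepest cells and -0.11 without cluster 0. The S phase list was -0.050, -0.064 and -0.088 with TMM, median-of-ratios and equal weights, and 0.14, 0.14, 0.055, 0.035 and 0.13 with thinning, the stricter filter, without the deepest cells, the same mix and without cluster 0. The cause was not tested.

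Positive shares were 18.7% of Selinexor and 26.2% of DMSO cells at 1000 UMIs, 51.3% of Selinexor and 50.5% of DMSO cells at 4000, 38.6% of Selinexor and 46.9% of DMSO cells unthinned, 43.2% of Selinexor and 42.9% of DMSO cells for at least 2 UMIs, 27.1% of Selinexor and 31.1% of DMSO cells for at least 5, 42.0% of Selinexor and 42.1% of DMSO cells for at least 2 members, and 31.4% of Selinexor and 34.6% of DMSO cells without Mki67 and Top2a.

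Early neutrophil-like cells gave -0.57 and -0.58 at resolutions 0.5 and 2.0, -0.53 with centring per library, -0.60 in double precision and -0.75 thinned to 2000. Intermediate ones gave -0.43, -0.39, -0.49 and -0.42 for the first 4 of these. Macrophage-like cells gave -0.71 at resolution 0.5 and -0.61 centred, where the class of this name held other cells (357 Selinexor and 179 DMSO, and 209 Selinexor and 126 DMSO), -0.33 with all variable genes, and -0.97, -1.21 and -0.999 thinned to 1000, 2000 and 4000, with no value at resolution 2.0 or in double precision, where fewer than 20 cells of a library were left. Double precision, chosen after seeing the clusters, gave 13 clusters and an adjusted Rand index of 0.704 with the 14 used, where 1 is identity. Within positive cells 4 members differed in share by 1.5-fold after thinning.

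No paired analysis was possible because each group has 1 library. Of the values for the comparisons themselves 62 moved and 57 did not, and of 515 values for single genes and smaller groups, 118 moved and 397 did not. Most ratios and shares moved where they left the counting interval of the main setting, and counts where they changed by more than 1.5-fold. The sign change of the S phase sum with TMM scaling is among the values that moved. Depth limits the rarer members, since 1 UMI in 2000 is the smallest level a thinned cell can show.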

Other observations

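Several small or 1-sided clusters entered no comparison. Dendritic cell-like cells held 300.0 CPM of mitotic-gene UMIs in 35 Selinexor cells and 389 CPM in 5 DMSO cells. Cluster 11, led by Mcpt8, Prss34, Ly6d and Siglech, held 1329.7 CPM in 26 Selinexor cells and 1301 CPM in 17 DMSO cells. The unnamed cluster 10, led by Gpnmb, Ccl4 and Ccrl2, held 649 CPM (239 UMIs) in 103 Selinexor cells and 1495 CPM (156 UMIs) in 45 DMSO cells, of which 64 Selinexor cells and 17 DMSO cells reached 2000 UMIs and 4 Selinexor and 2 DMSO cells were mitotic-positive. The unnamed cluster 7, led by Ms4a6c and Trem2, held 1403 CPM in 7 Selinexor cells and 2709 CPM in 259 DMSO cells, of which 37.7% were mitotic-positive, and the unnamed cluster 8, led by stefin genes, 881 CPM in 11 Selinexor cells and 2922 CPM in 222 DMSO cells, of which 39.2% were positive. Cluster 12, led by interferon-induced genes, held 1800.4 CPM in 39 DMSO cells and had 1 Selinexor cell.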
